A study of Mus musculus with 6 samples.

Results

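The 54 genes described here make up the machinery of DNA replication and the controls of the G1/S transition: origin licensing and helicase genes, replicative polymerases, the sliding clamp and its loader, nucleotide synthesis enzymes, G1 cyclins with their kinases, and the E2F and retinoblastoma genes. They were chosen by name, as the rows of a deposited read count table whose gene symbol was on a list. All 54 were among the 23842 genes of the table, and all 54 passed the low-count filter that left 15039 genes for testing. RNA was sequenced from cultured mouse embryonic fibroblasts (MEFs), cells grown out of dissociated embryos, of strain C57BL/6. The labels give genotype NGLY1-/- to 3 libraries, called knockout below, and WT to 3 libraries, called wild type. Both groups were kept untreated in culture medium rich in glucose and supplemented with serum. NGLY1 is the cytosolic peptide:N-glycanase, the enzyme that removes N-linked glycans from misfolded glycoproteins, and the design asks which genes differ where it is missing. The deleted stretch of the gene and the age of the embryos are not given in the labels. Nor do the labels tell whether a group's 3 libraries are separate embryos or repeats of 1 culture, and the p-values therefore describe library-to-library spread that may be technical.

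DNA replication is prepared in G1, when the origin recognition complex (ORC) with CDC6 and CDT1 loads the ring-shaped MCM helicase onto DNA. Cyclin D with CDK4 or CDK6, and then cyclin E with CDK2, phosphorylate the retinoblastoma protein and its relatives, which frees E2F transcription factors to drive many of the genes described here. In S phase MCM10, CDC45 and the GINS complex turn the loaded helicase on, DNA polymerase alpha with its primase starts each strand, polymerases delta and epsilon extend it on the PCNA clamp, and FEN1 and LIG1 join the lagging-strand pieces. In cultured fibroblasts the levels of these transcripts move with the share of cells that are cycling. In RNA from a whole culture, fewer cells in S phase and less RNA per cell cannot be told apart.

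Total counts were 33007239 to 37841558 per knockout library and 27323577 to 37790710 per wild-type library. Ngly1 itself had 14.6 ± 3.11 CPM (read counts scaled to the adjusted library total; SD, n = 3) in the knockout libraries and 14.6 ± 2.94 CPM (SD, n = 3) in the wild type (adjusted p = 0.99), so its whole-gene count does not check the genotype, and each direction below rests on the labels. Ribosomal RNA genes took 0.208% to 3.73% of the counts in the knockout and 1.45% to 2.82% in the wild-type libraries. Of 11 fibroblast markers, 10 were tested: 6 were lower, among them Vim and S100a4, and 2 were higher in the knockout, and their summed level was 10600 to 11800 CPM in the knockout against 8210 to 9210 CPM in the wild type. The higher sum came from Fn1, the fibronectin gene (6840 to 7760 against 1840 to 2330 CPM): without it the markers summed to 3760 to 4310 CPM in the knockout and 6120 to 6880 CPM in the wild type. Macrophage and leukocyte markers summed to 8.82 to 10.1 CPM against 5.16 to 8.41 CPM, with no row for Adgre1 in the count table and 1 of 2 tested genes higher. The endothelial Cldn5, epithelial Krt5 and Krt14, skeletal muscle Myod1 and Myog and pluripotency Zfp42 had no row either. The other endothelial, epithelial, skeletal muscle and pluripotency markers summed, list by list, to less than 4 CPM in every library. Among them Kdr and Des were higher and Krt8, Cdh1 and Nanog lower in the knockout. Neural markers, of which nestin is also made by cultured fibroblasts, summed to 280 to 377 CPM against 230 to 365 CPM, most of it nestin, which was not called. Of the 4 neural markers 2 were higher, Tubb3 2.79-fold and Sox2 7.72-fold, the latter at 1.83 to 2.51 CPM against 0.256 to 0.283 CPM. The part of these markers in the results was not tested.

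Wild-type replicate 3 was far above the other wild-type libraries in some of the G1 genes. Its Ccnd1 level was 224 CPM, against 48.2 and 76.2 CPM in wild-type replicates 1 and 2, and Ccnd2 and Cdk6 were high in it too. Across the 54 genes its median difference from the other wild-type libraries was -0.08 on the log2 scale, and 32 genes were lower in it than in both others. Knockout replicate 3 was below both other knockout libraries for 31 genes, with a median difference of -0.09. Wild-type replicate 2 was above both other wild-type libraries for 29 genes and below both for 0, with a median difference of 0.09. Values of Ccnd1, Ccnd2, Cdk6 and Myc are given with and without wild-type replicate 3.

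Of the 54 genes, 24 were higher and 9 lower in the knockout at a false discovery rate of 5%, and 21 did not pass. Over all tested genes 60.9% passed, 30.7% higher and 30.2% lower, so the 33 calls (61.1% of the 54) lay at the background share. The balance was 24 to 9 here, against 4621 to 4539 over all genes. The median log2 fold change was 0.18, against -0.04 over all tested genes. The changes were small beside the rest of the transcriptome: 6 of the 54 genes (11.1%) were called with a change of at least 2-fold, against 28.5% of all tested genes. For 38 of the 54 genes (70.4%) every knockout library lay on the same side of every wild-type one, against 67.3% of all tested genes. On the adjusted library totals the summed level of the 54 genes was 7909 to 8228 CPM in the knockout libraries and 6724 to 7107 CPM in the wild-type libraries. The groups did not overlap, but this depends on the scaling. The adjustment of the totals raised every knockout sum and lowered every wild-type sum. Abundant genes also weigh most in such a sum. With scaling by library totals only, which moved the median log2 fold change of all genes from -0.04 to -0.16, 17 of the 54 genes were higher and 11 lower. Without knockout replicate 2, 20 were higher and 5 lower.

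**Figure D1:**
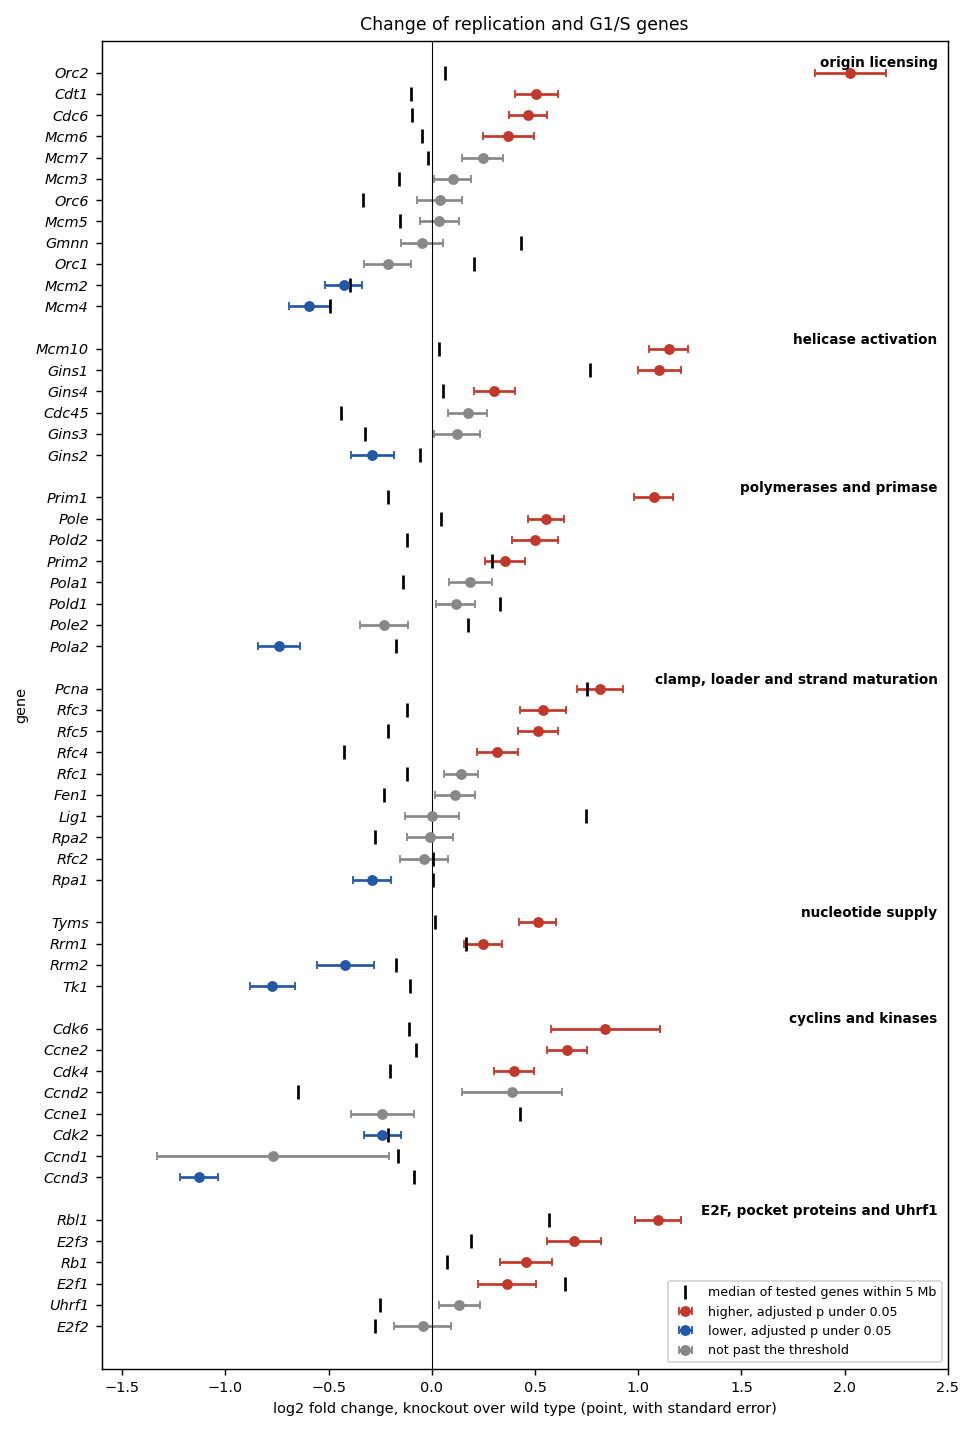
Log2 fold change of each of the 54 genes, knockout over wild type, with its standard error, grouped by role; red and blue points passed a false discovery rate of 5%, grey ones did not, and the black ticks give the median of the tested genes that start within 5 Mb of the gene. Orc2 stands furthest to the right at 2.03, Ccnd3 furthest to the left at -1.13, and 24 red points stand against 9 blue ones.

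Promoter letters, which the choice of members did not use, were also counted. RefSeq promoter windows (GRCm38.p6, 250 bases before to 50 bases after a start) were found for 42 of the 54 genes, 52 windows in all. Forms of the E2F motif, TTTCCCGC or TTTGGCGC on either strand, were present in 14 of these windows (26.9%), against 514 of all 32851 windows (1.56%) and 2.84% of the windows of tested genes. It was not particular to the 54 genes. In 2 lists described below, 9 of 41 windows of further replication genes (22%) and 4 of 32 windows of other G1/S regulators (12.5%) held it. The match did not separate the directions: it was in 5 of 21 windows of genes called higher, 1 of 8 of genes called lower and 8 of 23 of genes with no call. The CCAAT box, the letters CCAAT on either strand, was in 30 of the 52 windows (57.7%), against 37.4% of all windows and 38.2% of those of tested genes. The cell cycle homology region (CHR) letters TTTGAA or TTCGAA, on either strand, were in 9 windows (17.3%), between the 14.4% of the windows of tested genes and the 19.2% of all windows. No motif contains another. These are matches of letters, not measured binding sites, and a window without a match says nothing of the factor.

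The 150 bases before the start are shown for 6 genes, with matches to the E2F letters and the CCAAT box in capitals. They are the helicase gene Mcm6 (chr1:128359706-128359855, minus strand) and the regulator gene E2f3 (chr13:29986064-29986213, minus strand), called higher with an E2F match, Cdk2 (chr10:128705052-128705201, minus strand), called lower with one, and the strongly raised genes Orc2 (chr1:58505110-58505259, minus strand), Mcm10 (chr2:5012792-5012941, minus strand) and Prim1 (chr10:128015065-128015214, plus strand), which have no E2F match in the stretch shown. For E2f3 and Orc2, which have several windows, the first is shown.
Mcm6: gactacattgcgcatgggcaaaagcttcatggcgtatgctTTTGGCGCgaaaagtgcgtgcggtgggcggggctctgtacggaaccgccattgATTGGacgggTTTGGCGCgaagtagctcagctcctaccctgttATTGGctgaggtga
E2f3: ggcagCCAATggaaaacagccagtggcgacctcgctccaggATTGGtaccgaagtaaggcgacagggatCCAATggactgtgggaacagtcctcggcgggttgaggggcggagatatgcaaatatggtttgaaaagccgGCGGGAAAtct
Cdk2: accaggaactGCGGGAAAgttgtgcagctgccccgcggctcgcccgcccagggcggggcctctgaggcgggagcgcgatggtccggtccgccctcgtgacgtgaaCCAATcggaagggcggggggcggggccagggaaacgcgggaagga
Orc2: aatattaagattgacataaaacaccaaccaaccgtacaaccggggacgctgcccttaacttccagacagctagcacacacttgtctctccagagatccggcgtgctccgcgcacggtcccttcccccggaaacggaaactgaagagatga
Mcm10: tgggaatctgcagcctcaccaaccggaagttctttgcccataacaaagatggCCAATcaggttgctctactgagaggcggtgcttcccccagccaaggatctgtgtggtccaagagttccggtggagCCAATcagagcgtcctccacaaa
Prim1: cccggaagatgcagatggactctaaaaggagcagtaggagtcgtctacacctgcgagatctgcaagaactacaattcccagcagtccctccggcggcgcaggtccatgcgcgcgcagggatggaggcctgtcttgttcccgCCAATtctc
Mcm6 carries 2 E2F matches and 2 CCAAT boxes, E2f3 1 E2F match and 3 CCAAT boxes. In these 150 bases Mcm10 carries 2 CCAAT boxes, Prim1 1 and Orc2 none. Past the start, within the same windows, Orc2 and Mcm10 each hold a CCAAT match outside the stretch shown. The other Orc2 window holds 1 before its start.

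Among the 12 origin licensing genes, 4 were higher (33.3%) and 2 lower (16.7%), against 30.7% and 30.2% of all tested genes. Orc2 (gene ID 18393; chromosome 1, 58462771 to 58505113 in GRCm38), a core subunit of the origin recognition complex, had the largest change of the 54. Its level was 239, 199.6 and 202 CPM in the knockout libraries and 41.2, 49.2 and 67.0 CPM in the wild type. The lowest knockout library was well above the highest wild-type one, a 4.08-fold rise (log2 fold change 2.03 ± 0.17, SE; adjusted p = 1.02e-05). The other ORC members of the list differed from it. Orc1, the ATPase subunit that associates with ORC in G1, had 27.8, 26.0 and 24.7 CPM against 27.4, 30.0 and 33.6 CPM (adjusted p = 0.128), and Orc6 had 92.1 ± 12.4 against 89.7 ± 3.41 CPM (SD, n = 3 each; adjusted p = 0.777). Orc2 counts per Orc6 count were 2.25, 2.33 and 2.41 in the knockout and 0.48, 0.535 and 0.734 in the wild type, a pair compared after its values were seen. With scaling by library totals only, Orc1 passed as lower (log2 fold change -0.33, adjusted p = 0.0297) and Orc6 turned to -0.08.

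The loading factors rose with modest size. Cdc6, an ATPase that recruits the helicase, rose from 62.0 ± 4.26 to 85.6 ± 2.31 CPM (SD, n = 3 each), a 1.38-fold change (adjusted p = 0.00129). Cdt1, the other loader, had 159, 165 and 156 CPM in the knockout and 121, 119 and 97.4 CPM in the wild type, a 1.42-fold rise with no overlap (adjusted p = 0.00182). Gmnn encodes geminin, which binds CDT1 and blocks reloading within a cycle. Its level was 33.7 ± 0.378 against 34.8 ± 2.60 CPM (SD, n = 3 each; adjusted p = 0.694), and its fold change turned to 0.03 without wild-type replicate 2. The count ratio of Cdt1 to Gmnn, chosen after the values were seen, was 4.74 ± 0.0747 in the knockout and 3.23 ± 0.355 in the wild type (SD, n = 3 each), with no overlap. Geminin lies on chromosome 13 among genes with a median log2 fold change of 0.43.

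The 6 subunits of the MCM helicase ring, which are needed in equal number, did not move together. Mcm2 (chromosome 6, 88883474 to 88898780) had 232, 257 and 253 CPM in the knockout and 334, 346 and 318 CPM in the wild type, 1.35-fold lower (adjusted p = 0.00231). Mcm4 (chromosome 16, 15623897 to 15637400) had 246, 256 and 266 CPM against 380.4, 426 and 354 CPM, 1.51-fold lower (adjusted p = 0.000523). For both genes every knockout library was below every wild-type one. Mcm6 (chromosome 1, 128331575 to 128359705) had 429, 393 and 370.0 CPM against 336, 331 and 255 CPM, 1.29-fold higher with no overlap (adjusted p = 0.0239). The Mcm6 call did not hold when knockout replicate 1 (adjusted p = 0.0803) or knockout replicate 2 (0.0514) was left out, nor with scaling by library totals only (0.125). Mcm7 had 299, 310.5 and 278 CPM against 258, 267 and 223 CPM and just missed the threshold (adjusted p = 0.0572). It passed without knockout replicate 3 (0.0491), with no low-count filter (0.0437) and in limma-voom (0.0483). Mcm3 and Mcm5 had log2 fold changes of 0.10 ± 0.09 and 0.04 ± 0.10 (SE; adjusted p = 0.345 and 0.758), which turned to -0.01 and -0.08 with scaling by library totals only.

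The ratio of Mcm6 to Mcm4 counts, which no scaling can change, was 1.75, 1.54 and 1.39 in the knockout and 0.883, 0.778 and 0.722 in the wild type. The ratio of Mcm3 to Mcm5 was 1.01, 1.01 and 1.07 against 0.944, 0.984 and 1.02, with overlap. Both ratios were chosen after the values were seen. Per kilobase of exon (CPM per kb, over the merged exons of the GENCODE M21 gene, which the authors' annotation may not match), Mcm4 was highest in the wild type at 108 ± 10.1 and Mcm2 lowest at 47.8 ± 1.98 (SD, n = 3 each). Between them Mcm3 (82.0 ± 4.94), Mcm5 (78.6 ± 5.35), Mcm6 (65.9 ± 9.70) and Mcm7 (56.3 ± 5.24) followed, and the SD ranges of neighbours in this run overlapped. In the knockout the order was Mcm3 (88.1 ± 2.17), Mcm6 (85.2 ± 6.38), Mcm5 (80.6 ± 4.67), Mcm4 (71.3 ± 2.86), Mcm7 (66.8 ± 3.75) and Mcm2 (35.6 ± 1.95). There the SD ranges of Mcm3, Mcm6 and Mcm5 overlapped in turn, as did those of Mcm4 and Mcm7. Mcm4 thus went from the first to the fourth place of the ring's 6 genes. The tested genes within 5 Mb of Mcm2 and of Mcm4 had medians of -0.39 and -0.49, close to the log2 fold changes of these genes (-0.43 and -0.60), whereas those around Mcm6 had a median of -0.05.

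**Figure D2:**
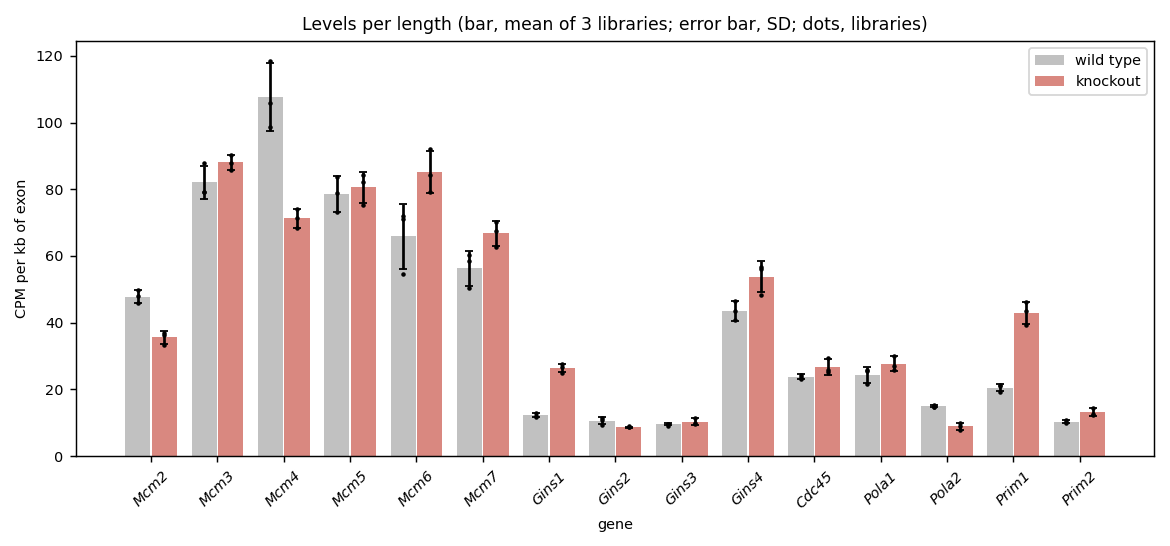
Level per kilobase of exon (CPM per kb, linear axis from 0) of helicase, GINS, Cdc45 and polymerase alpha-primase genes; bars are the means of 3 libraries, error bars the SD and dots the libraries, grey for wild type and red for knockout. Mcm4 and Pola2 drop while Gins1 and Prim1 rise clearly, and Mcm3 and Mcm5 keep overlapping dots.

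Of the 6 genes that activate the helicase, 3 were higher (50%) and 1 lower (16.7%), against 30.7% and 30.2% of all tested genes. Mcm10 (gene ID 70024; chromosome 2, 4990724 to 5012791), a factor that acts as the helicase is switched on, had 149, 145 and 157 CPM in the knockout and 61.9, 70.9 and 71.2 CPM in the wild type. Its 2.21-fold rise (log2 fold change 1.15 ± 0.09, SE; adjusted p = 4.86e-06) held under every one of the 15 alternatives that included the gene, in the range 1.03 to 1.20. The genes within 5 Mb of it had a median of 0.04. The GINS complex joins CDC45 and the MCM ring, and its 4 subunits split. Gins1 (gene ID 69270; chromosome 2, 150909556 to 150931280) had 40.4, 41.7 and 37.8 CPM against 18.4, 19.5 and 17.9 CPM, a 2.15-fold rise (adjusted p = 1.08e-05), and lies among genes with a median of 0.76. Gins2 had 35.3, 36.4 and 35.1 CPM against 44.7, 46.9 and 38.7 CPM, 1.22-fold lower (adjusted p = 0.0347). The ratio of Gins1 to Gins2 counts, chosen after the values were seen, was 1.12 ± 0.0403 in the knockout and 0.430 ± 0.0279 in the wild type (SD, n = 3 each).

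Gins4 rose 1.23-fold (adjusted p = 0.0239), with 72.5 ± 6.29 against 58.7 ± 3.91 CPM (SD, n = 3 each). Gins3 had a log2 fold change of 0.12 ± 0.11 and Cdc45 of 0.17 ± 0.09 (SE; adjusted p = 0.369 and 0.135). The calls of Gins2 and Gins4 were weak. The Gins2 call was lost without any 1 of the knockout libraries or without wild-type replicate 1 or 2 (adjusted p = 0.0849, 0.0924, 0.11, 0.0931 and 0.172, in this order) and with no low-count filter (0.0785). That of Gins4 was lost without knockout replicate 1, knockout replicate 2 or wild-type replicate 1 (0.0634, 0.0787 and 0.0575) and with library totals only (0.177).

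Of the 8 polymerase and primase genes 4 rose (50%) and 1 fell (12.5%), against 30.7% and 30.2% of all tested genes. The change differed within the polymerase alpha-primase complex. Prim1 (gene ID 19075; chromosome 10, 128015215 to 128030030), the catalytic subunit of the primase that lays down RNA primers, had 178, 168 and 152 CPM in the knockout and 81.8, 80.7 and 74.3 CPM in the wild type. It rose 2.11-fold (log2 fold change 1.07 ± 0.10, SE; adjusted p = 8.19e-06), while the genes around it had a median of -0.21. Prim2, the regulatory primase subunit, rose 1.28-fold (adjusted p = 0.00956; 78.0 ± 6.97 CPM against 61.0 ± 2.83 CPM, SD, n = 3 each), a call lost with library totals only (adjusted p = 0.0731). Pola2 (gene ID 18969; chromosome 19, 5940543 to 5964238), the accessory subunit of polymerase alpha, had 64.8, 81.8 and 75.5 CPM against 122, 123 and 126 CPM, 1.67-fold lower (adjusted p = 0.000149). Pola1, the catalytic subunit, had a log2 fold change of 0.19 ± 0.11 (SE; adjusted p = 0.149). Prim1 counts per Pola2 count were 2.75, 2.06 and 2.02 in the knockout and 0.669, 0.659 and 0.588 in the wild type, a ratio chosen after the values were seen.

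Pole, the catalytic subunit of the leading-strand polymerase epsilon, had 267, 276 and 253 CPM in the knockout and 183, 181 and 178 CPM in the wild type, a 1.47-fold rise with no overlap (adjusted p = 0.000318). Its partner Pole2 had 22.6 ± 1.21 against 26.5 ± 2.85 CPM (SD, n = 3 each; adjusted p = 0.107) and passed as lower without wild-type replicate 3 (adjusted p = 0.0295) and with library totals only (0.0402). Pold2, an accessory subunit of polymerase delta, rose 1.41-fold (adjusted p = 0.00275), while the catalytic subunit gene Pold1 had a log2 fold change of 0.12 ± 0.09 (SE; adjusted p = 0.313), and its sign turned with library totals only. Pold2 overlaps Aebp1, whose log2 fold change was 0.74, and without a known strand setting reads could have been assigned to either.

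The clamp gene Pcna (gene ID 18538; chromosome 2, 132249286 to 132253180), whose ring-shaped product tethers polymerases to DNA, had 549, 511 and 484 CPM in the knockout and 305, 319 and 253 CPM in the wild type. Every knockout library was above every wild-type one, and the rise was 1.76-fold (log2 fold change 0.82 ± 0.11, SE; adjusted p = 0.000147). The 75 tested genes within 5 Mb of Pcna had a median log2 fold change of 0.75. Per kilobase of exon Pcna was second to Cdk4 in the wild type (122 ± 14.7 and 147 ± 10.7 CPM per kb; SD, n = 3 each), with SD ranges that met at their edges. It was first in the knockout at 215 ± 13.6, with Cdk4 second at 194 ± 9.36 and overlapping SD ranges.

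Of the 5 genes of replication factor C, which opens the clamp and loads it onto DNA, 3 rose, as did 30.7% of all tested genes. These were Rfc3 (1.45-fold, adjusted p = 0.00183), Rfc5 (1.43-fold, 0.00116) and Rfc4 (1.25-fold, 0.0172). The call of Rfc4 was lost with library totals only (adjusted p = 0.133), and Rfc4 overlaps Eif4a2, whose log2 fold change was -0.54. Rfc3 had 72.8, 70.3 and 65.9 CPM in the knockout and 51.6, 51.1 and 41.1 CPM in the wild type. Rfc1, the large subunit, had a log2 fold change of 0.14 ± 0.08, and Rfc2 one of -0.04 ± 0.12 (SE; adjusted p = 0.157 and 0.779). Rpa1, the large subunit of the complex that coats single-stranded DNA, fell from 270.7 ± 10.9 to 221 ± 12.9 CPM (SD, n = 3 each), 1.22-fold (adjusted p = 0.0182). The gene overlaps Smyd4, which was lower too (log2 fold change -0.33, adjusted p = 0.046). Leaving out knockout replicate 2 (0.0536), knockout replicate 3 (0.0987) or wild-type replicate 2 (0.104) took the Rpa1 call away. Its partner Rpa2 had 62.2 ± 8.03 against 62.5 ± 3.60 CPM (adjusted p = 0.949). The lagging-strand genes also did not pass: the flap nuclease gene Fen1 had a log2 fold change of 0.11 ± 0.10 and the ligase gene Lig1 one of 0.00 ± 0.13 (SE; adjusted p = 0.333 and 0.992). Lig1 ran from 103 to 149 CPM in the knockout libraries and from 119 to 132 CPM in the wild type, so the knockout libraries lay on either side of the wild-type ones.

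In the fit with all libraries each of the 4 nucleotide supply genes passed, as many up as down, where 60.9% of all tested genes passed. Tyms, thymidylate synthase, which makes thymidylate from deoxyuridylate, had 136, 134 and 122 CPM in the knockout and 92.3, 95.2 and 87.0 CPM in the wild type, a 1.43-fold rise (adjusted p = 0.000639). Tk1 (chromosome 11, 117815519 to 117826087), thymidine kinase, which makes thymidylate by salvage of thymidine, had 58.4, 47.6 and 47.3 CPM against 80.8, 92.2 and 89.2 CPM, 1.71-fold lower (adjusted p = 0.000181). The ratio of Tyms to Tk1 counts, chosen after the values were seen, was 2.57 ± 0.244 in the knockout and 1.05 ± 0.0841 in the wild type (SD, n = 3 each). Tk1 overlaps Afmid, whose log2 fold change was -0.62. Ribonucleotide reductase makes deoxynucleotides and has a large subunit encoded by Rrm1 and a small, S-phase subunit encoded by Rrm2. Rrm1 rose 1.19-fold (adjusted p = 0.0359) and Rrm2 fell 1.34-fold, with 105, 117 and 138 CPM against 139, 155 and 189 CPM (adjusted p = 0.0234). The Rrm1 call was lost without knockout replicate 1 or 2 or wild-type replicate 1 or 2 (adjusted p = 0.0764, 0.0758, 0.127 and 0.085), with library totals only (0.212) and with a filter at 1 CPM (0.0552), and that of Rrm2 without knockout replicate 1 or 2 (adjusted p = 0.109 and 0.0838).

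**Figure D3:**
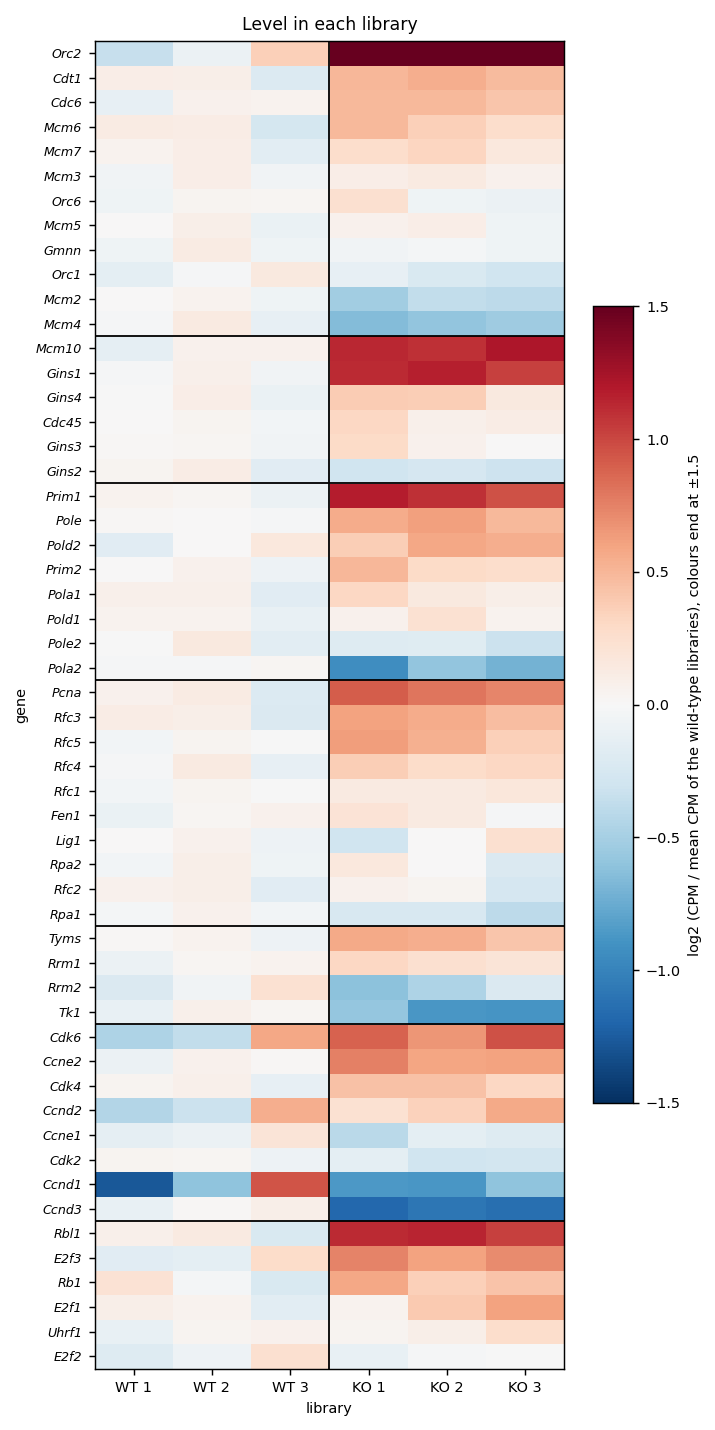
Level of each of the 54 genes in each library as log2 of CPM over the wild-type mean, with rows grouped by role in the order of the text and colours ending at ±1.5. The 3 knockout columns are red throughout for Orc2, Mcm10, Gins1, Prim1, Pcna and Rbl1 and blue for Mcm4, Pola2, Tk1 and Ccnd3, while wild-type replicate 3 is red for Ccnd1, Ccnd2 and Cdk6.

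The 3 D-type cyclins, which pair with CDK4 and CDK6 to start the phosphorylation of the retinoblastoma protein, behaved differently from each other. Ccnd3 (gene ID 12445; chromosome 17, 47505051 to 47599689) had 47.4, 50.6 and 49.0 CPM in the knockout and 99.5, 108 and 114 CPM in the wild type. It was 2.18-fold lower (log2 fold change -1.13 ± 0.09, SE; adjusted p = 4.35e-06), the smallest p of the 54 genes, and the fold change stayed between -1.24 and -1.07 under all 16 alternatives. The genes around it had a median of -0.09. It overlaps Bysl, whose log2 fold change was 0.81. Ccnd1 had 63.7, 63.5 and 76.3 CPM in the knockout and 48.2, 76.2 and 224 CPM in the wild type, so the groups overlapped and the difference rested on wild-type replicate 3. Its log2 fold change was -0.77 ± 0.56 (SE; adjusted p = 0.279) and turned to 0.14 without that library (adjusted p = 0.521).

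Ccnd2 had 125, 135 and 157 CPM in the knockout and 78.6, 85.2 and 155 CPM in the wild type, where replicate 3 lay within the range of the knockout libraries. In the fit on genotype alone with all libraries it did not pass (log2 fold change 0.39 ± 0.24, SE; adjusted p = 0.195). Without wild-type replicate 3 its log2 fold change was 0.78 (adjusted p = 4.64e-06). Ccnd2 counts per Ccnd3 count were 2.63, 2.66 and 3.21 in the knockout and 0.79, 0.788 and 1.36 in the wild type, with no overlap even with that library. The ratio was chosen after the values were seen. Ccnd2 lies on chromosome 6 among genes with a median log2 fold change of -0.65.

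The E-type cyclins, which activate CDK2 at the entry into S phase, also differed. Ccne2 had 70.1, 62.6 and 62.9 CPM in the knockout and 39.0, 43.1 and 42.1 CPM in the wild type, a 1.58-fold rise with no overlap (adjusted p = 0.000216). It overlaps the noncoding gene A630034I12Rik (log2 fold change 1.74) and Ints8 (-0.39). Ccne1, at 8.72 ± 0.799 against 10.3 ± 1.31 CPM (SD, n = 3 each), did not pass (adjusted p = 0.195). Among the kinases, Cdk4 rose 1.32-fold (adjusted p = 0.00514; 629 ± 30.4 CPM against 477 ± 34.8 CPM, SD, n = 3 each). Cdk6 had 328, 282 and 347 CPM in the knockout and 129, 138 and 267 CPM in the wild type, a 1.79-fold rise with no overlap (adjusted p = 0.023). Its fold change was 1.27 on the log2 scale without wild-type replicate 3, against 0.84 with it. Without wild-type replicate 1 or 2 or knockout replicate 1 or 3, its adjusted p was 0.0536, 0.0649, 0.0508 and 0.0533. With no low-count filter the adjusted p of Cdk6 was 0.123. Cdk2 was 1.18-fold lower, with 94.0, 84.7 and 85.8 CPM against 107, 107 and 98.7 CPM (adjusted p = 0.0377). This call was lost without knockout replicate 2 or 3 or wild-type replicate 1 or 2 (adjusted p = 0.164, 0.143, 0.104 and 0.144). It was also lost with no low-count filter (0.115).

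**Figure D4:**
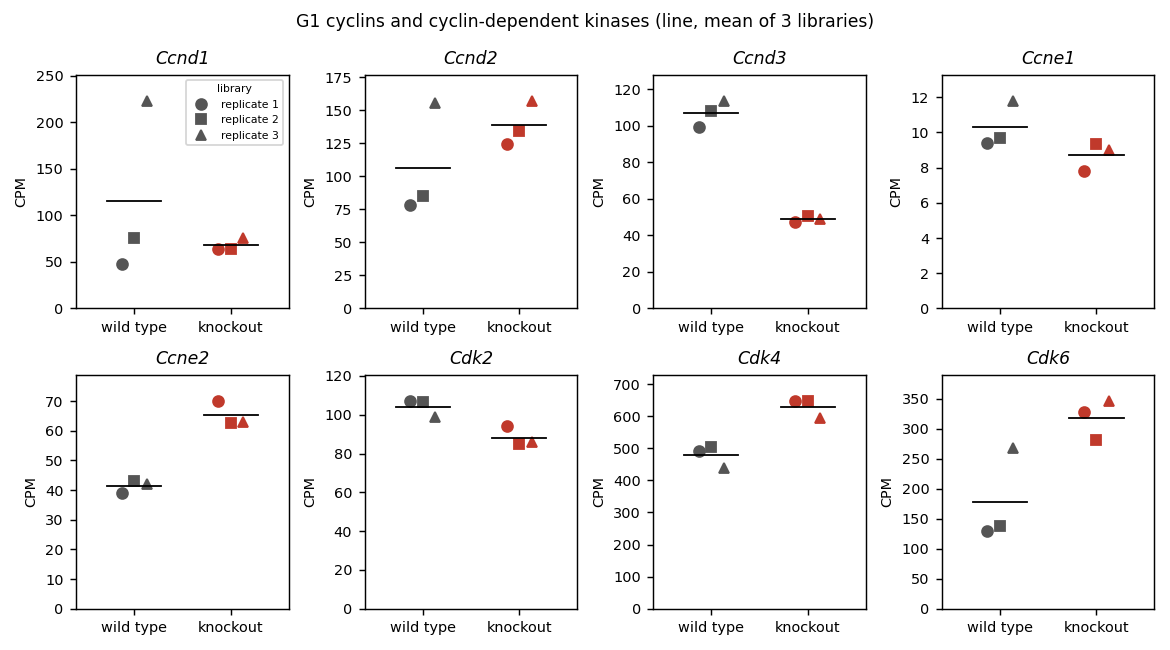
CPM of the 5 cyclin genes and 3 kinase genes in each library (circle, square and triangle for replicates 1, 2 and 3; line, mean of 3 libraries; linear axes from 0). Ccnd3, Cdk2 and Ccne1 separate the groups downwards, Ccne1 without passing the threshold, and Ccne2, Cdk4 and Cdk6 separate them upwards. The wild-type triangle stands apart from the other wild-type points for Ccnd1, Ccnd2 and Cdk6.

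Of the 6 genes in the E2F and retinoblastoma group with Uhrf1, 4 were higher and 0 lower, against 30.7% and 30.2% of all tested genes. Rbl1 (gene ID 19650; chromosome 2, 157145893 to 157204534), which encodes p107, a retinoblastoma relative and itself an E2F target, had 190.3, 193 and 178 CPM in the knockout and 92.4, 95.9 and 74.5 CPM in the wild type. Its rise was 2.14-fold (log2 fold change 1.10 ± 0.11, SE; adjusted p = 1.95e-05), among genes with a median of 0.57. Rb1, the retinoblastoma gene, rose 1.37-fold (adjusted p = 0.0104), with 55.6, 47.9 and 50.3 CPM against 43.5, 36.7 and 31.8 CPM, a call lost with library totals only (adjusted p = 0.059). E2f3, an activating E2F, had 54.5, 49.7 and 53.2 CPM against 29.0, 29.4 and 39.5 CPM, a 1.61-fold rise (adjusted p = 0.0012). E2f1, the other activator that was called, was at the edge. It had 56.9, 72.2 and 83.4 CPM in the knockout and 58.6, 56.9 and 49.5 CPM in the wild type, so the groups overlapped (1.29-fold, adjusted p = 0.044). The E2f1 call was lost without knockout replicate 2 or 3 or wild-type replicate 2 or 3 (adjusted p = 0.0957, 0.149, 0.07 and 0.0525). It was also lost with library totals only (0.169), the filter at 1 CPM (0.0692), limma-voom (0.0535), both libraries numbered 3 left out (0.204) and structural RNA genes left out (0.0562). The genes around E2f1 had a median of 0.65. E2f2 had 13.9 ± 0.532 against 14.4 ± 2.29 CPM (SD, n = 3 each; adjusted p = 0.796). Uhrf1, which brings the maintenance DNA methyltransferase to newly replicated DNA, had 285, 292 and 332 CPM against 255, 285 and 288 CPM (adjusted p = 0.268).

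The fold changes were also set beside those of the neighbouring genes on each chromosome. For each gene the median log2 fold change of the 22 to 224 tested genes that start within 5 Mb was computed. It was above 0.3 for 8 of the 54 genes, 4 of them called higher and 0 lower, and below -0.3 for 7, 1 of them higher and 2 lower. For the remaining 39 genes the counts were 19 higher and 7 lower. All 5 genes on chromosome 2 were higher (Mcm10, Gins1, Pcna, E2f1 and Rbl1), as were 44.3% of the 1175 tested genes of that chromosome. Against the local median, 23 of the 24 genes called higher lay above it, with E2f1 below it, and all 9 genes called lower lay below it. The calls rest on the same fold changes, and most local medians were small, so this count was largely fixed in advance. Across the 54 genes, some of which share neighbours, the correlation of the fold change with the local median was weak (Pearson's r = 0.268, Spearman's rho = 0.269). With the genes of chromosomes 2, 6, 9, 13, 16, 18, X and Y left out, 17 of the remaining 41 genes were higher and 7 lower. The autosomes among these had the median log2 fold changes furthest from 0 in these data, such as 0.43 for chromosome 13 and -0.41 for chromosome 6. Leaving them out is therefore not an independent check. Orc2, Prim1, Mcm10 and Ccnd3 differed most from their surroundings, by 1.96, 1.28, 1.11 and -1.04 on the log2 scale.

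Of a further 43 replication genes outside the 54, 16 were higher and 9 lower (58.1% called, against 60.9% of all tested genes), with a median log2 fold change of 0.13. Recql4, a helicase needed to start replication, rose 6.05-fold (adjusted p = 3.29e-08), with 323 ± 6.57 CPM in the knockout and 53.4 ± 3.10 CPM in the wild type (SD, n = 3 each). Mcm8, which acts in recombination repair, rose 3.54-fold. The lower genes with the smallest p were Topbp1 (1.47-fold), which helps to activate the helicase, Rnaseh2c (1.66-fold), a subunit of the nuclease that removes ribonucleotides, and the nuclease-helicase gene Dna2 (1.45-fold). The ORC genes outside the 54, named after their values were seen, were Orc5 (2.14-fold higher), Orc3 (1.51-fold higher) and Orc4 (log2 fold change 0.15, adjusted p = 0.237).

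Of 30 other G1/S regulators, 12 were higher and 9 lower, 70% in all against the same background. Ccnh and Mnat1, which with CDK7 form the kinase that activates other cyclin-dependent kinases, rose 3.11-fold and 1.55-fold, and Lin54, a subunit of the DREAM repressor complex that binds CHR letters, rose 1.43-fold. Inhibitors of cyclin-dependent kinases went both ways: Cdkn2d and Cdkn2c, which block CDK4 and CDK6, fell 3.78-fold and 2.59-fold, and E2f6, a repressive E2F, fell 2.38-fold. Genes named after their values were seen were Cdkn1b (p27), 3.25-fold lower, Rbl2 (p130), the retinoblastoma relative of resting cells, 2.64-fold lower, Cdkn1a (p21), 2.26-fold higher, and Cdkn2b (p15), 1.54-fold higher. Myc, a growth-driving transcription factor also named afterwards, had 234, 216 and 362 CPM in the knockout and 13.8, 17.7 and 54.8 CPM in the wild type (log2 fold change 3.24 ± 0.60, SE; adjusted p = 0.00424). Wild-type replicate 3 was the highest wild-type library here too, and without it the log2 fold change was 4.12.

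Called genes of G2 and mitosis were all lower in this fit, whereas the 54 replication and G1/S genes went both ways. Of 24 tested, 0 were higher and 18 lower (75%), with a median log2 fold change of -0.55, against 24 higher and 9 lower of the 54 replication and G1/S genes. At the same threshold 30.2% of all tested genes were lower. Without knockout replicate 3, 1 mitotic gene was higher. The summed level of the mitotic genes was 3561 to 3860 CPM in the knockout libraries and 5061 to 5507 CPM in the wild type. Cenpa, the centromeric histone, fell 2.83-fold, Ccnb2, a mitotic cyclin, 3.78-fold, and Cenpf, a kinetochore protein gene, 2.30-fold. The proliferation marker Mki67, named after its value was seen, fell 1.76-fold (adjusted p = 5.76e-05). Ccna2, the cyclin of S phase and G2, belongs to the list of other G1/S regulators and was also named afterwards. It fell 1.74-fold. The promoter letters of the mitotic list differed too: the CHR letters were in 17 of its 21 windows (81%), the CCAAT box in 18 (85.7%) and the E2F letters in 0. The lists were chosen with earlier results of these data known, and the difference between them was not tested beyond these counts.

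**Figure D5:**
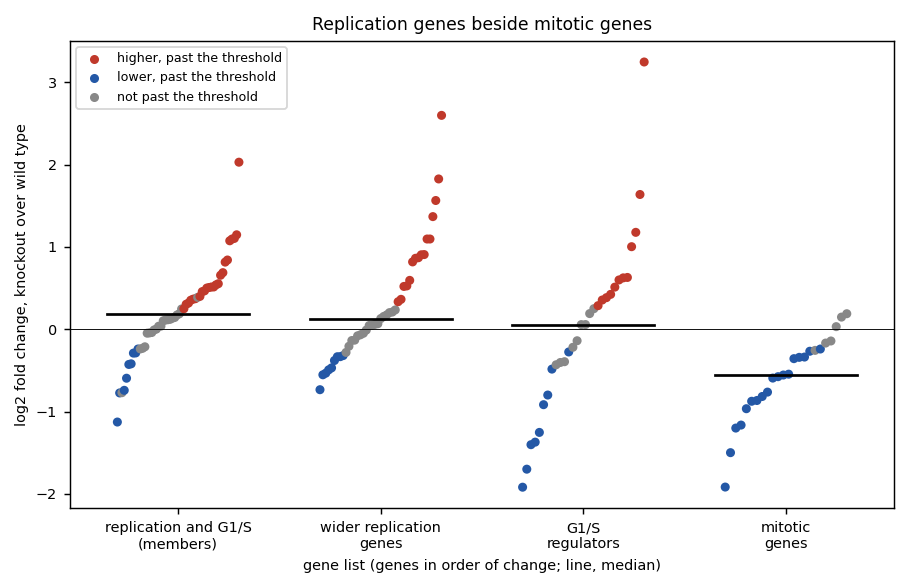
Log2 fold change, knockout over wild type, of the 54 replication and G1/S genes, 43 further replication genes, 30 other G1/S regulators and 24 mitotic genes, each sorted by its change, with the median as a line and red and blue for genes past the threshold. The medians of the first 3 lists lie above 0 (0.18, 0.13 and 0.06) and that of the mitotic genes at -0.55, with no red point among the mitotic genes in this fit.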

How the data were processed

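RNA was isolated with Trizol and sequenced from stranded total RNA libraries, per the labels' protocols. The authors deposited raw read counts per gene, keyed by NCBI Gene ID, per the file headers. The submitters' processing notes list STAR 2.5.1b and build mm10. Counter, annotation and strand setting: not given in the sources used here. Reads in overlapping genes (18 of the 54 overlap a protein-coding gene) are therefore uncertain.

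Differences were tested two-sided in R 4.3.3 with edgeR 4.0.16 (filterByExpr, TMM scaling, robust quasi-likelihood fit on genotype alone) over the 15039 genes kept, and p-values were adjusted by Benjamini and Hochberg's method (threshold 0.05). The common dispersion was 0.0239. SEs are the fold change over the square root of its F statistic, and CPM use TMM-scaled totals. Coordinates and promoters come from RefSeq (GRCm38.p6, the assembly that mm10 denotes), exon lengths from GENCODE M21. Alternatives were other scalings and filters, DESeq2 1.42.0, limma-voom (limma 3.58.1), a replicate block, and libraries, structural RNA genes or chromosomes left out. In data simulated with independent libraries and far fewer changed genes than were called here, DESeq2 called more unchanged genes than its nominal rate. There edgeR was close to its own rate. False calls at the share of changed genes seen here were not tested.

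The 54 genes and the other lists were chosen with earlier results of these data known. Values per library are given for called genes with the largest changes or smallest p and for called Mcm genes and Pcna. They are also given for the cyclin, kinase, E2F and retinoblastoma genes, except Cdk4, Ccne1 and E2f2, for which the text gives means and SDs. From the other lists, up to 3 higher and 3 lower called genes with the smallest p are named. A gene that this rule names is not reported here.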

Additional observations from a re-analysis of the deposited data

How the results depend on the processing

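Over 16 alternatives, 16 of the 24 genes called higher and 5 of the 9 called lower kept their call in every alternative that tested them, and 0 of these 33 reversed. Leaving out 1 library gave 20 to 24 higher and 5 to 10 lower genes among the 54, and 0 to 1 higher mitotic genes. With both libraries numbered 3 left out, 1 mitotic gene was higher. With the genes of chromosomes 2, 6, 9, 13, 16, 18, X and Y left out, fewer genes were tested: 3044 of all genes were higher, 2970 lower, and 5 of the wider replication genes were lower.

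Reversals were among genes that were not called. With library totals only, log2 fold changes were -0.015 for Mcm3, -0.081 for Mcm5, -0.080 for Orc6, -0.0021 for Pold1, -0.0028 for Fen1 and -0.12 for Lig1. Lig1 was also -0.033 with a filter at 1 CPM, -0.014 with the replicate block and in limma-voom, -0.010 without those chromosomes and -0.16 with both libraries numbered 3 left out. Under this last setting Rpa2 was 0.069, Ccnd1 0.047 and E2f2 0.083. With no low-count filter Rpa2 was 0.018 and Ngly1 0.024. Leaving out 1 library gave -0.079 to 0.027 for Gmnn, -0.066 to 0.12 for Orc6, -0.11 to 0.075 for Rfc2, -0.089 to 0.11 for Rpa2, -0.12 to 0.14 for Lig1, -1.14 to 0.14 for Ccnd1, -0.14 to 0.10 for E2f2 and -0.18 to 0.10 for Ngly1. The cause was not tested.

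The labels do not pair replicate numbers, and deviations of same-numbered libraries correlated at 0.0961, 0.0138 and 0.209. Knockout replicate 1 was closest to wild-type replicate 2 (0.149). With the replicate number as a block, 24 genes were higher and 9 lower, with Mcm7 and Ccnd2 gained (adjusted p = 0.0469 and 0.0178) and Rrm1 and E2f1 lost (0.06 and 0.0572), and Ngly1 was at 0.00085. Of all genes 4690 were higher and 4563 lower under the block.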
